A study of Mus musculus with 6 samples.

Results

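The mitosis genes described here are 48 genes that act as a cell condenses its chromosomes, builds a spindle and divides. They were taken from a fixed list and matched by symbol in the gene lists of every library, where all 48 were found among 32285 annotated features. By role they fall into 7 mitotic kinases, cyclins and their partners, 7 genes of the spindle checkpoint and the anaphase-promoting complex, 5 of the chromosomal passenger group, 13 motors and spindle proteins, 7 kinetochore genes, 3 cytokinesis genes and 6 genes of chromosome structure and condensation. The rule uses gene names only.

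Cyclin-dependent kinase 1, bound to a B-type cyclin, drives a cell into mitosis, and the aurora and polo-like kinases then prepare centrosomes, kinetochores and the spindle. The anaphase-promoting complex ends the process by marking cyclins and securin for destruction. Most of these genes are transcribed in a burst in G2 and mitosis, so a tissue sample contains their RNA mainly where cells are dividing, and a lower level can mean fewer dividing cells or less RNA in each.

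The cells came from pancreatic tumours of 6 KPC mice, a tumour model whose alleles include p53LSL.R172H/+ and Pdx1-Cretg/+, so that Cre driven by the Pdx1 promoter switches on mutant p53 in pancreatic epithelium and its descendants. Endothelial cells, fibroblasts and leukocytes do not descend from that epithelium, and no allele was read in single cells. In the treated group, 3 mice received the MEK inhibitor trametinib at 1 mg/kg by mouth with the lysosomal inhibitor hydroxychloroquine at 40 mg/kg by mouth. In the vehicle group, 3 mice received corn oil and water. Every mouse of both groups carried the alleles of the model, was enrolled with a tumour of 4 to 7 mm and gave its tumour 24 h after treatment, 1 droplet library per tumour. Ages and sexes were not used.

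Cells were grouped into classes by marker genes, and 7 classes had at least 20 cells in each of the 6 mice: endothelial cells, fibroblasts, macrophages with monocytes, tumour and ductal epithelial cells, T and NK lymphocytes, neutrophils and B lymphocytes. The libraries held between 22996012 and 126645602 unique molecular identifiers (UMIs, each marking 1 captured RNA molecule), and the kept cells numbered 3941, 5153 and 5991 in the treated libraries and 2144, 9469 and 10304 in the vehicle libraries. Treated libraries were deeper, with a median of 8418 to 11143 UMIs per kept cell against 2980.5 to 4692 in vehicle libraries. Over all kept cells depth therefore moved with treatment, but not in every class. Among macrophages and monocytes of at least 2000 UMIs the medians were 10832, 8957 and 12538 UMIs in treated against 5533, 5191 and 3667 in vehicle mice. Endothelial medians overlapped, at 6819, 6540 and 10051 UMIs in treated against 3978.5, 7353 and 6951 in vehicle mice. Shares of cells with a given RNA are given after each cell was thinned at random to 2000 UMIs. Vehicle 1 stood apart. It was the smallest library, it held 43 endothelial cells against 237 and 311 in the other vehicle libraries, and 25.9% of its barcodes began with a 7-base start that vehicle 2 or vehicle 3 also used, whereas at least 99.8% did between any of the other 5 libraries. Whole barcodes shared between a pair of libraries numbered 0 to 24. Treated 1 and treated 2 were the closest pair of mice but differed by more than counting noise and were kept as separate samples.

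The windows around the annotated starts of 6 members are shown because these 6 had the largest fold changes, among the members past the threshold in endothelial cells, of those with a RefSeq window. Aurka and Kif11 among them passed the filter on low counts through the vehicle mice alone, so the choice is a description. Each runs 250 bases before to 50 bases after the gene's start on build GRCm38.p6, from RefSeq, and is written 5′ to 3′ on the gene's own strand. Capitals mark the letters CCAAT, the core of the box bound by the factor NF-Y, on either strand. They also mark TTTGAA on either strand, the core of the cell cycle homology region (CHR), an element known from promoters of G2 and mitosis genes. A variant of that core, TTCGAA, which reads the same on both strands, was searched as well and is in none of the 6. The windows are Cdca8 at chr4:124936868-124937167 on the minus strand, Ccnb2 at chr9:70421505-70421804 on the minus strand, Aurka at chr2:172370521-172370820 on the minus strand, Cenpa at chr5:30666636-30666935 on the plus strand, Pttg1 at chr11:43425932-43426231 on the minus strand and Kif11 at chr19:37376132-37376431 on the plus strand.
Cdca8: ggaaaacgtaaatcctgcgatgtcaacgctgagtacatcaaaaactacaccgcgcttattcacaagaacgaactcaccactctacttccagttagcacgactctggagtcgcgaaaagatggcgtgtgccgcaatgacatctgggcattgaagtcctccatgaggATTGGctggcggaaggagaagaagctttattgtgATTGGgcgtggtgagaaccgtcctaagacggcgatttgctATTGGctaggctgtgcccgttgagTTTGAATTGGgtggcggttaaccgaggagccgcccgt
Ccnb2: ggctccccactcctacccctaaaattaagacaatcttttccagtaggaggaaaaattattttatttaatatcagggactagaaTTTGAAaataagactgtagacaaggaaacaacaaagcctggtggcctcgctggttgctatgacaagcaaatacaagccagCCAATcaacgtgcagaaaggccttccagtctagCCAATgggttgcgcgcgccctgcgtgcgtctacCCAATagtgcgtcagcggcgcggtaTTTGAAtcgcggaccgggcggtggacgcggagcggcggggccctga
Aurka: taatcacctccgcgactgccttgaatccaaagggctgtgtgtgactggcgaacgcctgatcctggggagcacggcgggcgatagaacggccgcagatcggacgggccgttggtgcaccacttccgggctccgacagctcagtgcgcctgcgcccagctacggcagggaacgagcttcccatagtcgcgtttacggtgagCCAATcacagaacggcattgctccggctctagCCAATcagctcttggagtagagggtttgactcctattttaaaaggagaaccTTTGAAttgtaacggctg
Cenpa: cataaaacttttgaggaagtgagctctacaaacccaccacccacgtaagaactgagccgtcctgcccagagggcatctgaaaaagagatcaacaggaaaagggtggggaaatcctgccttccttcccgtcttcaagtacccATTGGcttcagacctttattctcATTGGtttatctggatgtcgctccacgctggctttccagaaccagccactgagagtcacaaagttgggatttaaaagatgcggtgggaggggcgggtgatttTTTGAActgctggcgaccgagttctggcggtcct
Pttg1: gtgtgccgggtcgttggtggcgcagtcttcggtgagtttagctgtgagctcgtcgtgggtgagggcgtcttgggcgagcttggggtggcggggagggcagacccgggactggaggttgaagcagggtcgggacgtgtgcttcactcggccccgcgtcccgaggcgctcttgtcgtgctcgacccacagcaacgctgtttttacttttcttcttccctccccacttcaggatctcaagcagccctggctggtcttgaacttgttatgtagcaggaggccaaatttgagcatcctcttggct
Kif11: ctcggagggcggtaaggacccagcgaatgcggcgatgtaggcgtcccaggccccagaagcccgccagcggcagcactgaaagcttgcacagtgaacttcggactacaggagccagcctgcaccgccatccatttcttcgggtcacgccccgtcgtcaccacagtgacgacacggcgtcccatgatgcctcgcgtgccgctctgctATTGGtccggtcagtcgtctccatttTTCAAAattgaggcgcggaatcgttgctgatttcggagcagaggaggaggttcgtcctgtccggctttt

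The CCAAT box stood 51 and 19 bases before the start in Aurka, 87, 54 and 21 bases before it in Ccnb2, 109 and 86 in Cenpa, 45 in Kif11, and 85, 51 and 11 in Cdca8. Cdca8 held a further box 18 bases after the start, which shares 1 base with the CHR core there. The CHR core began 4 bases after the start in Ccnb2, 13 in Cdca8, 16 in Cenpa and 32 in Aurka, and 19 bases before it in Kif11, and Ccnb2 held another 167 bases before it. The Pttg1 window held none of these letters. The RefSeq starts behind the Pttg1 and Cdca8 windows lie 270 and 2394 bases downstream of the outermost start that GENCODE gives these genes, so neither window covers that start. Of the 48 members, 41 had a RefSeq window, and 30 of the 41 held the CCAAT box on either strand (73.2%), against 41.1% of 27025 genes. The core TTTGAA was in 30 of the 41 (73.2%), against 20.2% of genes, its variant in 3 (7.32%), against 1.80% of genes, and either form in 31 (75.6%), against 21.7%. These are letter matches and were not tested for binding.

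The 48 members were summed per mouse and class, in CPM, which are UMI counts scaled to the same total in every class and mouse. In such sums, fewer dividing cells and less RNA per dividing cell cannot be told apart. Tumour and ductal epithelial cells had 2031, 1963 and 1468 CPM in treated mice 1, 2 and 3 and 2204, 1309 and 2472 CPM in vehicle mice 1, 2 and 3. T and NK lymphocytes had 2408, 2168 and 2722 CPM in treated mice against 3178, 1484 and 3952 CPM in vehicle mice. The groups overlapped in both classes. Endothelial cells stood at 293, 243 and 518 CPM in treated mice against 373, 2954 and 2241 CPM in vehicle mice, so 2 of the 3 vehicle mice were above every treated mouse and vehicle 1 was not. Fibroblasts had 545, 403 and 912 CPM in treated mice against 249, 2039 and 1873 CPM in vehicle mice, with the same order. In macrophages and monocytes the sums were 754, 596 and 534 CPM in treated mice against 1150, 1853 and 1478 CPM in vehicle mice, and the groups did not overlap. The heat map of members by mouse shows the members one by one in tumour cells, endothelial cells, fibroblasts and macrophages.

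**Figure D1:**
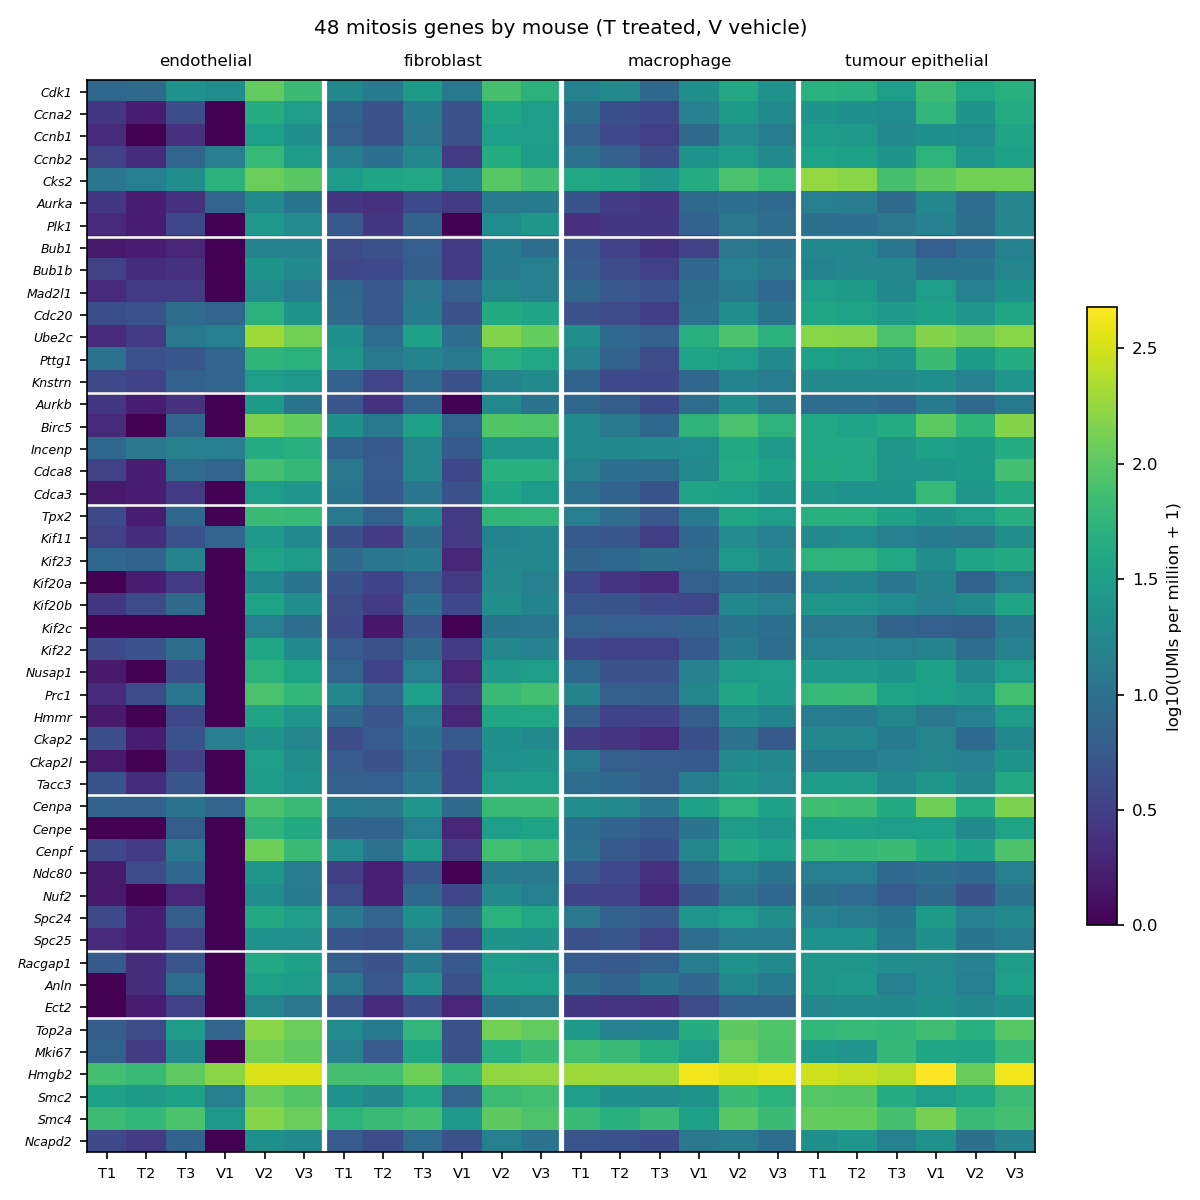
Level of each of the 48 mitosis genes (rows, grouped by role with white lines) in each mouse (columns, T1 to T3 treated and V1 to V3 vehicle) in 4 cell classes, as log10 of CPM plus 1. In endothelial cells and fibroblasts vehicle mice 2 and 3 are bright for nearly all members while vehicle 1 resembles the treated mice, and 31 members are at 0 in the small endothelial sum of vehicle 1.

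A single RNA molecule of a mitosis gene says little about a cell, so cells were also counted that carried at least 3 of the 48 members at 2000 UMIs, called carrying cells below. Among endothelial cells, 2 of 192, 3 of 187 and 5 of 150 carried 3 or more in treated mice (1.04%, 1.60% and 3.33%), against 1 of 26, 62 of 233 and 50 of 196 in vehicle mice (3.85%, 26.6% and 25.5%). The exact 95% interval of vehicle 1 ran from 0.0973% to 19.6%, so its 26 cells did not place it with either side. Among fibroblasts the share was 2.43%, 2.12% and 8.74% in treated mice against 2.44%, 19.6% and 19.3% in vehicle mice. Vehicle 1 again sat among the treated mice, here with 82 cells and an interval of 0.297% to 8.53%. In macrophages and monocytes it was 6.85%, 6.37% and 4.47% in treated mice against 8.05%, 14.97% and 12.9% in vehicle mice, without overlap. Tumour and ductal epithelial cells overlapped, with 25.0%, 22.7% and 13.6% in treated mice against 20.3%, 16.8% and 45.3% in vehicle mice. As a score over the members this share was not tested, and its intervals cover counting error only.

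Counted without thinning, the same share was 78.4% ± 3.17 in treated and 66.0% ± 14.8 in vehicle tumour cells and 38.2% ± 13.8 and 24.9% ± 8.35 in treated and vehicle macrophages (SD, n = 3 mice each), so the treated mean was above the vehicle mean where cells were taken at their own depth. Endothelial cells kept the lower mean in treated mice, at 24.5% ± 10.3 against 29.7% ± 21.7 (SD, n = 3 each). Cells under 2000 UMIs were left out of the thinned values: 18 to 35 endothelial cells and 134 to 486 macrophages per treated mouse, and 17 to 78 endothelial cells and 118 to 739 macrophages per vehicle mouse. As a check of free RNA in the droplets, Birc5 was seen in 0 of 344 B lymphocytes of treated 3. That allows a share of up to 0.872%. In vehicle 2 Birc5 was seen in 0.822% of 365 B lymphocytes. All are at 2000 UMIs, with median depths of 3248 and 1943 UMIs before thinning. Cdk1, Plk1 and Cenpf were likewise at 0% in treated 3. Other members were more frequent in these B lymphocytes of treated 3 and vehicle 2. Hmgb2 was found in 25.6% and 16.2% of them, Cks2 in 6.98% and 7.40% and Top2a in 3.20% and 2.19%. The check therefore covers single genes and does not bound the share of carrying cells that free RNA could give.

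**Figure D2:**
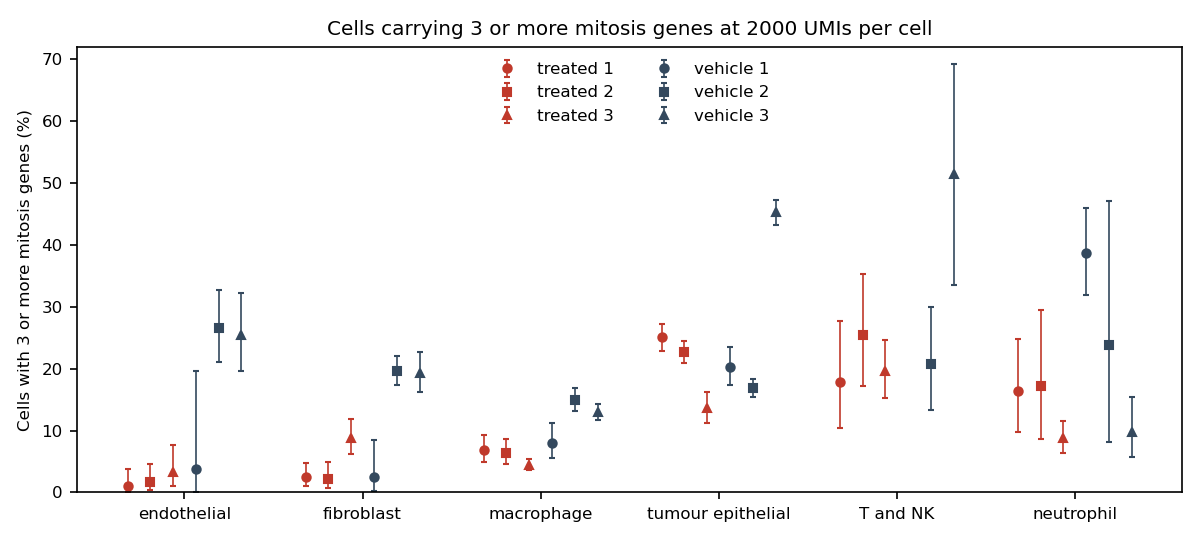
Percent of cells with at least 1 UMI of 3 or more of the 48 mitosis genes after thinning to 2000 UMIs, by class and mouse (red treated, blue vehicle), with exact 95% binomial intervals. Only mice with at least 20 cells of that depth are drawn, so T and NK lymphocytes lack vehicle 1. In endothelial cells the treated mice lie between 1.04% and 3.33% and vehicle mice 2 and 3 at 26.6% and 25.5%.

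Carrying endothelial cells of vehicle mice 2 and 3 shared features that the count of members did not use. In vehicle 2, 72.6% of carrying endothelial cells also had 3 or more of 50 other mitosis genes, against 5.26% of the remaining endothelial cells, and in vehicle 3 these shares were 70.0% and 9.59%. For 25 S-phase genes the shares were 43.5% and 5.26% in vehicle 2 and 36.0% and 8.22% in vehicle 3. In both mice carrying endothelial cells kept their class markers. These summed to 6927 CPM in vehicle 2 and 6840 CPM in vehicle 3 against 8319 and 8226 CPM in the remaining endothelial cells. Their tumour epithelial markers summed to 298 and 240 CPM against 503 and 171 CPM in the remaining cells. Of the carrying endothelial cells, 38 of 62 in vehicle 2 and 36 of 50 in vehicle 3 lay in 1 sub-cluster. They were also the larger libraries of their class, with medians before thinning of 11899 and 11514 UMIs against 5834 and 5389.5 UMIs in the remaining endothelial cells. The 1 carrying endothelial cell of vehicle 1 had 1500 CPM of endothelial markers, against 9560 CPM in the remaining ones. Carrying neutrophils differed between mice in this respect. In vehicle 1, vehicle 3 and treated 3, 71.1%, 25.0% and 22.7% of them had 3 or more other mitosis genes, against 3.33%, 3.38% and 6.99% of the remaining neutrophils. In treated 1, treated 2 and vehicle 2, with 17, 10 and 5 carrying neutrophils, 0% did, against 5.75%, 8.33% and 12.5% of the remaining ones.

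Counts were next summed per mouse and class and compared between 3 treated and 3 vehicle mice with edgeR's quasi-likelihood test, with Benjamini-Hochberg adjustment over all genes of the class at 0.05. In endothelial cells 28 of the 48 members passed the filter on low counts, which asked for at least 5.235 CPM in 3 mice, and 12 of the 28 fell in treated mice while none rose; of 10077 endothelial genes tested, 0.804% fell and 0.129% rose. The 12 were Cdca8, Ccnb2, Aurka, Cenpa, Pttg1, Kif11, Ckap2, Cks2, Knstrn, Cdc20, Incenp and Hmgb2. Which members were tested depended on the groups compared. Aurka, Kif11 and Ckap2 reached that level in no treated mouse and in all 3 vehicle mice, by 1, 1 and 2 UMIs in vehicle 1, so that they could be tested only because they were higher in vehicle mice. The 20 members left out, Plk1 and Ccna2 among them, reached it in no treated mouse and in vehicle mice 2 and 3. The count of 12 of 28 is therefore a description of the members tested. With no filter all 48 were tested and 34 fell, against 2.63% of 17914 genes. Vehicle 1 gave these comparisons little depth, since its endothelial sum held 155448 UMIs against at least 1607959 UMIs in every other mouse, and 1 UMI there is 6.43 CPM. Without vehicle 1 the count of members that fell was 45 of 48 tested, against 4.41% of all genes, and without treated 3 it was 40 of 48, against 1.46%. Without vehicle 2 it was 7 of 28, against 0.886% of genes, and without vehicle 3 it was 1 of 28, against 0.0389%. Without treated 1 or treated 2 no member and no other gene passed (0%), with 46 and 47 of 48 members at an unadjusted p under 0.05 in edgeR. How many of all genes had such a p was not counted in these fits. In the fit of all 6 mice, 1928 of 10077 genes did. In the fits that left out a mouse and tested all 48, the filter asked for fewer mice. The 20 members named as left out above then entered through vehicle mice 2 and 3, where they were high. Those counts are likewise descriptions of the members tested.

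Endothelial markers summed to between 8342 and 9590 CPM in treated mice against between 7872 and 9250 CPM in vehicle mice, and tumour epithelial markers to 138, 64.2 and 83.3 CPM in treated mice against 96.2, 448 and 189 CPM in vehicle mice. The median mitochondrial share of endothelial cells was 4.84% to 5.28% in treated mice against 1.59%, 5.46% and 3.79% in vehicle mice 1, 2 and 3. Their part in the differences below was not tested. Cluster 16 held most endothelial cells of all 6 mice.

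Of the kinases, cyclins and their partners, Ccnb2, Cks2 and Aurka fell in endothelial cells. Cks2, a small subunit that binds cyclin-dependent kinases (chr13:51645232-51650660 on mm10), had 10.3, 13.1 and 19.6 CPM in treated mice 1, 2 and 3 against 51.5, 115 and 98.1 CPM in vehicle mice 1, 2 and 3. All 3 treated mice were below all 3 vehicle mice, and the log2 fold change was -2.82 ± 0.29 (SE, adjusted p = 0.00835 in edgeR). Ccnb2, a B-type cyclin and partner of Cdk1, had 2.30, 1.24 and 6.53 CPM in treated mice against 12.9, 61.8 and 28.9 CPM in vehicle mice. The groups did not overlap, although the value of vehicle 1 rests on 2 UMIs, and the log2 fold change was -3.58 ± 0.53 (SE, adjusted p = 0.0161 in edgeR). Aurka, a kinase of centrosomes and spindle poles, was at 1.72, 0.622 and 1.40 CPM in treated mice against 6.43, 17.6 and 10.1 CPM in vehicle mice, with 1 UMI in vehicle 1. Its log2 fold change was -3.39 ± 0.50 (SE, adjusted p = 0.0129 in edgeR), a description only, since it passed the filter through the vehicle mice alone. Cdk1, the kinase that starts mitosis, had 6.89, 7.46 and 22.9 CPM in treated mice against 19.3, 107 and 65.9 CPM in vehicle mice. Treated 3 and vehicle 1 overlapped, and its difference of -2.63 ± 0.53 on the log2 scale had an adjusted p of 0.0716 in edgeR. Plk1, a kinase of mitotic entry and exit, was at 1.15, 0.622 and 2.80 CPM in treated mice against 0, 26.1 and 18.8 CPM in vehicle mice and did not pass the filter on low counts.

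Of the 7 genes of the anaphase-promoting complex and checkpoint group, Pttg1, Cdc20 and Knstrn fell in endothelial cells. Pttg1 encodes securin, which holds back the separation of sister chromatids until anaphase. It had 9.19, 3.73 and 4.20 CPM in treated mice against 6.43, 55.0 and 50.03 CPM in vehicle mice, so that vehicle 1, with 1 UMI, lay below treated 1. Its log2 fold change was -3.12 ± 0.42 (SE, adjusted p = 0.0129 in edgeR). Cdc20, the activator of the anaphase-promoting complex, had 3.44, 3.73 and 7.93 CPM in treated mice against 6.43, 51.3 and 23.6 CPM in vehicle mice, overlapping between treated 3 and vehicle 1. The log2 fold change was -2.76 ± 0.47 (SE, adjusted p = 0.0268 in edgeR). Knstrn, a spindle and kinetochore protein, had 2.87, 2.49 and 5.60 CPM in treated mice against 6.43, 29.7 and 25.5 CPM in vehicle mice, without overlap. Ube2c, the ubiquitin-conjugating enzyme of the complex, was at 1.15, 1.87 and 10.7 CPM in treated mice against 12.9, 196 and 127 CPM in vehicle mice. That difference was among the largest in size, at -4.79 ± 0.88 on the log2 scale, but its spread was wide and the adjusted p was 0.0768 in edgeR; it is named for its size after its values were seen.

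Of the chromosomal passenger group, which corrects faulty attachments of chromosomes to the spindle, Cdca8 and Incenp fell. Cdca8, or borealin, had 2.30, 0.622 and 7.93 CPM in treated mice against 6.43, 73.8 and 59.2 CPM in vehicle mice. Its log2 difference was -3.95 ± 0.64 (SE, adjusted p = 0.0433 in edgeR), the largest of the 12, with an overlap between treated 3 and vehicle 1. Incenp, the scaffold of the complex, had 6.89, 10.6 and 13.5 CPM in treated mice against 12.9, 42.9 and 47.6 CPM in vehicle mice, and its log2 fold change was -2.07 ± 0.33 (SE, adjusted p = 0.0159 in edgeR). Birc5, or survivin, was at 1.15, 0 and 6.53 CPM in treated mice against 0, 140 and 110 CPM in vehicle mice. It was close to absent in all treated mice and in vehicle 1, and the fit gave an adjusted p of 0.0879 in edgeR.

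Kif11, the kinesin that pushes spindle poles apart, and Ckap2, a protein of spindle microtubules, fell among the 13 motors and spindle genes, and Cenpa fell among the 7 kinetochore genes. Kif11 had 2.30, 1.24 and 3.73 CPM in treated mice against 6.43, 26.9 and 18.3 CPM in vehicle mice, without overlap, and its log2 difference was -3.10 ± 0.45 (SE, adjusted p = 0.0129 in edgeR). Ckap2 had 3.44, 0.622 and 3.73 CPM in treated mice against 12.9, 22.9 and 15.9 CPM in vehicle mice, also without overlap. Kif11 and Ckap2 passed the filter through the vehicle mice alone, so their results are descriptions only. Cenpa, the histone variant that marks centromeres, had 5.74, 5.60 and 9.80 CPM in treated mice against 6.43, 79.8 and 64.0 CPM in vehicle mice. Treated 3 exceeded vehicle 1, and the log2 fold change was -3.19 ± 0.43 (SE, adjusted p = 0.0129 in edgeR). Cenpf, a large protein of the outer kinetochore, was at 2.87, 1.87 and 10.7 CPM in treated mice against 0, 120 and 65.4 CPM in vehicle mice, with an adjusted p of 0.0977 in edgeR. None of the 3 cytokinesis genes passed the threshold, and only Anln among them passed the filter.

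Of the genes of chromosome structure, Hmgb2 fell in endothelial cells, with 74.1, 62.2 and 105 CPM in treated mice against 161, 342 and 344 CPM in vehicle mice. The groups did not overlap, and the log2 fold change was -1.97 ± 0.29 (SE, adjusted p = 0.0129 in edgeR). Hmgb2 had the most UMIs of the 12 in vehicle 1, at 25, so it rests least on single molecules there. Top2a, the topoisomerase that untangles sister chromatids, was at 5.17, 3.11 and 29.4 CPM in treated mice against 6.43, 157 and 117 CPM in vehicle mice (adjusted p = 0.177 in edgeR). Mki67, which coats mitotic chromosomes and is widely used to mark dividing cells, was at 5.74, 1.87 and 17.7 CPM in treated mice against 0, 131 and 104 CPM in vehicle mice (adjusted p = 0.133 in edgeR). For Top2a, Mki67, Birc5 and Cenpf, vehicle mice 2 and 3 were above every treated mouse and vehicle 1 was at 0 or at 1 UMI.

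**Figure D3:**
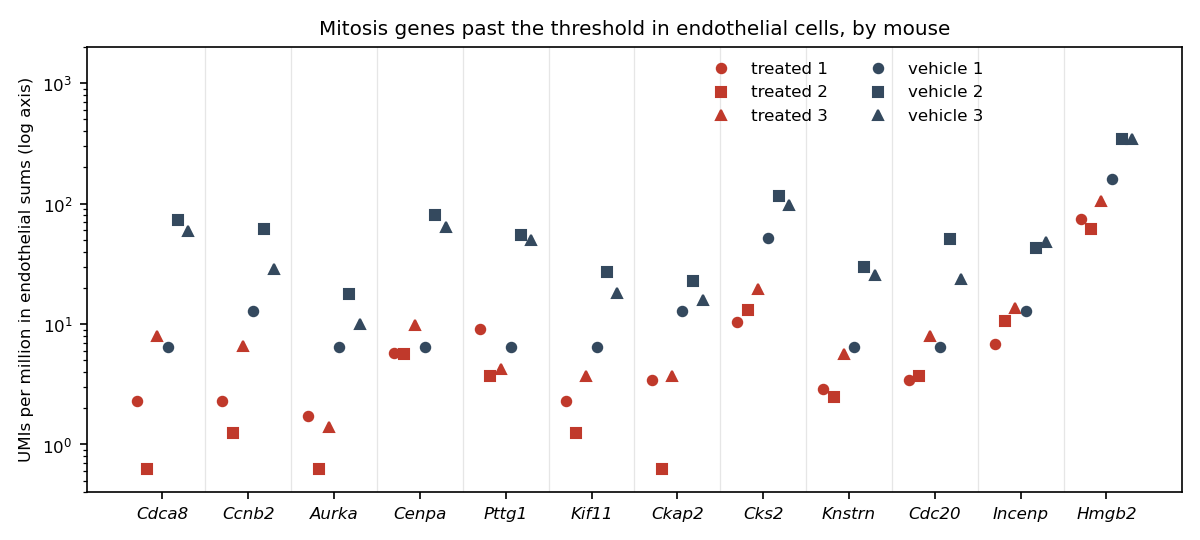
CPM in endothelial sums (log axis) of the 12 mitosis genes with an adjusted p under 0.05, by mouse (red treated, blue vehicle), ordered by log2 fold change. Vehicle mice 2 and 3 are above every treated mouse for all 12, while vehicle 1 lies at 6.43 CPM, the value of a single UMI, for 7 of them.

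The share of endothelial cells with at least 1 UMI at 2000 UMIs could be tested for 5 members, and Cks2 and Hmgb2 fell, against 0.871% of 5397 genes that fell. Neither call held with the replicate number as a block (0 of 14 members and 0% of genes fell) or after thinning to 1000 UMIs (0 of 3 members, against 0.963% of genes). Cks2 was found in 0.521%, 1.60% and 1.33% of endothelial cells in treated mice against 7.69%, 12.4% and 11.7% in vehicle mice (log2 difference -3.29 ± 0.48, SE, adjusted p = 0.000582 in edgeR). Cks2 passed the filter on low counts of expressing cells through the vehicle mice alone, so this result is a description only. Hmgb2 was found in 12.5%, 9.63% and 12.7% in treated mice against 26.9%, 29.2% and 26.5% in vehicle mice (-1.27 ± 0.24, SE, adjusted p = 0.00925 in edgeR). Both shares were separate between groups, and vehicle 1 was here beside the other vehicle mice. Its values are 2 and 7 of 26 cells. In B lymphocytes of treated 3 and vehicle 2, Cks2 was found in 6.98% and 7.40% of cells and Hmgb2 in 25.6% and 16.2%, shares above those of treated endothelial cells, so these lymphocytes cannot serve as cells that lack either gene. Before thinning Cks2 was found in 7.49%, 9.30% and 14.9% of treated against 11.6%, 27.7% and 32.5% of vehicle endothelial cells. The level per expressing endothelial cell could be tested for Hmgb2 alone, which had 1.17, 1.11 and 1.16 UMIs in treated mice against 1.14, 2.12 and 1.87 UMIs in vehicle mice, with an adjusted p of 0.307 in limma. With so few carrying endothelial cells in treated mice, levels within carrying cells were not tested.

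In macrophages and monocytes all 48 members passed the filter and none passed the threshold, nor did any macrophage gene in either direction (0% of 11645). Unadjusted, 43 of the 48 had a p under 0.05 in edgeR, all with lower values in treated mice. Of all 11645 macrophage genes, 1314 had such a p in either direction. The smallest adjusted p among the members was 0.0763 in edgeR, for Plk1 and Racgap1. With DESeq2 34 members fell, against 1.55% of all macrophage genes. In 38 of the 48 the treated mice were all below the vehicle mice, against 11.2% of all macrophage genes. The median log2 fold change of the members was -1.64, against 0.01 over all macrophage genes. Each of the 7 role groups, summed, was lower in all 3 treated mice than in any vehicle mouse.

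Macrophage markers summed to 27188 to 34519 CPM in treated mice against 19026 to 23278 CPM in vehicle mice. Tumour epithelial markers summed to 49.8 to 80.5 CPM in treated and 112 to 583 CPM in vehicle macrophages, and neutrophil markers to 54.7 to 266 CPM in treated macrophages and to 1396, 98.3 and 242 CPM in vehicle mice 1, 2 and 3. In vehicle 1 they stood at 8677 CPM in the 31 carrying macrophages against 758 CPM in the remaining ones. Without vehicle 1 no member passed the threshold (0% of 12231 genes did), 44 of 48 had an unadjusted p under 0.05 in edgeR, and the median log2 fold change was -1.78. How many of all genes had such a p was not counted in that fit. The part of these markers in the members' differences was not tested.

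Plk1 had 1.27, 1.70 and 1.71 CPM in treated macrophages against 5.91, 10.6 and 8.10 CPM in vehicle macrophages (log2 difference -2.34 ± 0.30, SE). Birc5 had 17.8, 11.0 and 6.76 CPM in treated mice against 54.8, 79.3 and 53.0 CPM in vehicle mice (-2.37 ± 0.38, SE, adjusted p = 0.107 in edgeR). Top2a had 26.7, 14.4 and 15.1 CPM in treated mice against 44.1, 101 and 86.9 CPM in vehicle mice (-1.98 ± 0.33, SE, adjusted p = 0.115 in edgeR). None of these 3 overlapped between groups, and vehicle 1 was on the vehicle side, if the lowest of it for Plk1 and Top2a. Ccnb2 had 8.90, 5.57 and 3.27 CPM in treated mice against 22.8, 29.0 and 17.2 CPM in vehicle mice. Cenpf had 9.18, 4.64 and 3.52 CPM in treated mice against 16.2, 42.0 and 32.6 CPM in vehicle mice. Hmgb2 had 192, 189 and 186 CPM in treated mice against 413, 350 and 385 CPM in vehicle mice, also without overlap. Cdk1, Cks2 and Aurka were also lower in every treated mouse than in any vehicle mouse. Mki67 did not follow them, with 72.02, 62.6 and 45.9 CPM in treated mice against 30.3, 116 and 84.8 CPM in vehicle mice, where vehicle 1 was the lowest of all 6. Its log2 difference was -0.27 ± 0.38 (SE), and 0.05 without vehicle 2.

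The share of macrophages with a UMI at 2000 UMIs was compared next. For 24 of the 48 members that share was lower in every treated mouse than in any vehicle mouse, against 9.07% of 11050 genes seen in at least 30 cells. Birc5 was found in 1.58%, 0.817% and 0.538% of treated macrophages against 3.64%, 7.25% and 5.16% of vehicle macrophages. In B lymphocytes it was found in 0.822% of cells in vehicle 2 and in 0 of 344 in treated 3, which allows up to 0.872%. Ccnb2 was found in 0.879%, 0.980% and 0.414% of treated against 2.60%, 3.02% and 2.58% of vehicle macrophages. Mki67 was found in 6.68%, 8.82% and 6.21% of treated against 3.38%, 9.33% and 8.35% of vehicle macrophages, which overlap. No member passed the threshold for its share, and the smallest adjusted p was 0.13 in edgeR, for Birc5. Unadjusted, 26 of 35 tested had a p under 0.05 in edgeR, against 710 of 9218 genes.

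Of 19 members with at least 5 expressing cells in every mouse, the median log2 ratio of treated over vehicle means was -0.94 for the share and -0.15 for the level, and 7 had levels lower in every treated mouse, against 5.35% of 7577 genes. Most levels were close to 1 UMI per expressing cell, the lowest value possible, which limits how far the level can differ, so the sizes of these ratios are not compared. Ube2c had 1, 1 and 1.2 UMIs per expressing cell in treated mice against 1.42, 1.82 and 1.51 UMIs in vehicle mice (log2 difference -0.57 ± 0.10, SE, adjusted p = 0.119 in limma). Birc5 had 1.33, 1.2 and 1.31 UMIs in treated mice against 1.93, 1.53 and 1.44 UMIs in vehicle mice, and Hmgb2 1.48, 1.41 and 1.40 UMIs against 1.89, 1.64 and 1.70 UMIs. The groups were separate for these 3 genes. None of 18 members tested passed the threshold in limma, and 8 had an unadjusted p under 0.05, against 357 of 7417 genes.

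**Figure D4:**
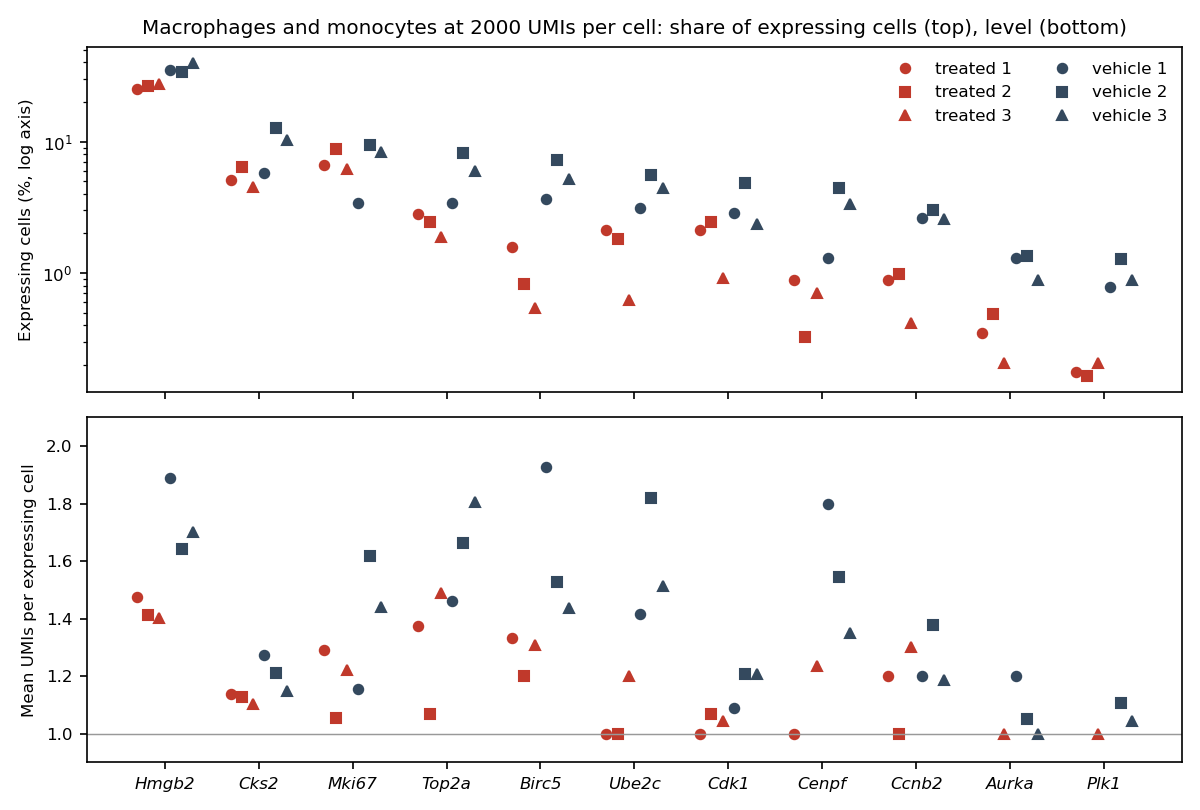
Macrophages and monocytes thinned to 2000 UMIs: percent of cells with at least 1 UMI (top, log axis) and mean UMIs per such cell (bottom, with at least 5 such cells) for 11 mitosis genes, by mouse (red treated, blue vehicle). Shares of Birc5, Ccnb2, Aurka and Plk1 are separate between groups, whereas Mki67 overlaps in both panels.

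Within carrying macrophages, chosen for each gene by 3 or more of the other members, 21 members could be tested and none passed the threshold. Of the 21, 14 had an unadjusted p under 0.05 in edgeR, against 169 of 2131 genes. The median log2 difference was -1.04 against 0.00 over those genes. Of those genes 0.141% rose and none fell. Without vehicle 1, whose carrying macrophages held the neutrophil markers given above, 34 members could be tested, none passed, 22 had an unadjusted p under 0.05 in edgeR, and the median was -1.09. Of 3532 genes tested there, 0.0566% fell and 0.255% rose, and how many had such an unadjusted p was not counted. The filter asked for fewer mice in that fit, so its counts are descriptions of the members tested. Ube2c had 92.1, 52.6 and 51.9 CPM in treated carrying macrophages against 226, 303 and 217 CPM in vehicle ones (log2 difference -1.90 ± 0.40, SE, adjusted p = 0.124 in edgeR). Cenpf had 38.5, 12.8 and 48.1 CPM in treated against 129, 209 and 148 CPM in vehicle carrying macrophages (-2.06 ± 0.43, SE, adjusted p = 0.124 in edgeR). Cenpf passed the filter on low counts through the vehicle mice alone, so its result is a description only. The counts over the 21 are likewise descriptions of the members tested. Birc5 had 132, 52.6 and 65.4 CPM in treated against 403, 336 and 259 CPM in vehicle carrying macrophages, and Top2a had 203, 94.6 and 197 CPM against 242, 392.2 and 370 CPM. All 4 genes were separate between the groups. The Birc5 values rest on 38, 38 and 107 carrying macrophages in treated mice against 31, 217 and 316 in vehicle mice. Of the macrophages carrying 3 or more of all 48 members, 19.4% to 46.2% in treated mice against 29.0% to 47.1% in vehicle mice also carried 3 or more S-phase genes. Of the same cells 41.0%, 30.8% and 21.3% in treated mice against 45.2%, 58.7% and 55.1% in vehicle mice carried 3 or more of the other mitosis genes, without overlap between the groups. The largest cluster of the class was number 13, 13 and 5 in treated mice against 6, 0 and 0 in vehicle mice, so the macrophages compared came mostly from different clusters, and the part of that in the result was not tested.

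In fibroblasts all 48 members were tested and none passed the threshold (0% of 12486 genes did). Unadjusted, 23 members had a p under 0.05 in edgeR, against 1914 of 12486 genes. DESeq2 called 1 member lower, against 1.24% of genes. Every member's log2 fold change was below 0, with a median of -1.56 against 0.00 over all fibroblast genes, and no member was separate between groups with treated lower, against 5.77% of genes. Top2a had 18.7, 11.4 and 56.5 CPM in treated mice against 3.67, 127 and 107 CPM in vehicle mice. Cdk1 had 16.9, 11.6 and 27.7 CPM in treated mice against 11.0, 75.7 and 51.8 CPM in vehicle mice, and Birc5 had 21.2, 11.1 and 32.6 CPM against 6.42, 88.3 and 86.7 CPM. Vehicle 1 was the lowest of the 6 mice for all 3 genes, and vehicle mice 2 and 3 were above every treated mouse. Aurka had the smallest adjusted p, at 0.217 in edgeR, with 1.73, 1.45 and 2.98 CPM in treated mice against 1.84, 11.1 and 11.9 CPM in vehicle mice. Plk1, Mki67, Ccnb2, Cks2, Cenpf and Hmgb2 had log2 differences between -2.02 and -0.70, with adjusted p-values of 0.323 to 0.519 in edgeR. Of 13 members whose share of expressing cells could be tested none passed, against 0.0271% of genes that fell and 0.0677% that rose, and without vehicle 1 the count was 7 of 35, against 0.449% of genes. The filter then asked for fewer mice, so vehicle mice 2 and 3 alone could let a member in. That count is therefore a description of the members tested. The largest cluster was number 28, 28 and 18 in treated mice against 18, 21 and 14 in vehicle mice, and its part in the values was not tested.

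In tumour and ductal epithelial cells, all 48 members were tested and none passed the threshold (0% of 15350 genes did). Of the 48, 6 had an unadjusted p under 0.05 in edgeR, near the share of all genes, 1780 of 15350. The median log2 fold change was -0.39 against -0.07 over all genes. Birc5 had the largest difference, with 39.0, 34.2 and 44.0 CPM in treated mice against 100, 55.7 and 150 CPM in vehicle mice. The groups did not overlap, as for 2 of the 48 members against 3.37% of genes, and the log2 difference was -1.79 ± 0.46 (SE, adjusted p = 0.414 in edgeR). DESeq2 called Birc5 lower and no other member, 1 of 48, against 1.13% of genes called lower. The second separate member was Cdca3, which takes part in mitotic entry and averaged 23.7 ± 1.49 CPM in treated and 42.5 ± 18.1 CPM in vehicle tumour cells (SD, n = 3 each); it was named after its values were seen.

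Cdk1 had 50.6, 48.1 and 30.3 CPM in treated tumour cells against 68.4, 39.4 and 47.6 CPM in vehicle tumour cells. Mki67 had 27.3, 24.1 and 59.1 CPM in treated against 37.6, 35.6 and 65.0 CPM in vehicle, and Top2a had 58.3, 61.1 and 58.6 CPM against 71.0, 47.5 and 94.6 CPM. Vehicle 3 was the highest for Mki67 and Top2a and the groups overlapped for all 3. Cks2 had 173, 159 and 75.6 CPM in treated against 103, 127 and 127 CPM in vehicle tumour cells, and Cenpf had 64.2, 59.9 and 65.3 CPM against 44.7, 33.0 and 83.4 CPM. The log2 difference was -0.16 for Cks2, and 0.01 without vehicle 3 or 0.12 without treated 3. It was -0.18 for Cenpf, and 0.47 without vehicle 3. Hmgb2 had 301, 278 and 244 CPM in treated against 475, 112 and 412 CPM in vehicle tumour cells. Ccnb2, Aurka and Plk1 had log2 differences of -0.61, -0.65 and -0.86, with adjusted p-values of 0.515, 0.571 and 0.441 in edgeR.

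Per expressing tumour cell, 37 of 46 members had a higher level in treated mice, but the median log2 difference was 0.05. None passed the threshold in limma. Of the 46, 7 had an unadjusted p under 0.05 in limma, against 497 of 9149 genes. Cenpf had 1.64, 1.76 and 1.69 UMIs per expressing cell in treated mice against 1.54, 1.27 and 1.32 UMIs in vehicle mice (adjusted p = 0.811 in limma). Within carrying tumour cells all 48 members were tested and none passed. Of these, 5 had an unadjusted p under 0.05 in edgeR, against 1175 of 7636 genes, a larger share. Among the members Birc5 had the smallest adjusted p there, at 0.191 in edgeR, with a log2 difference of -1.22 ± 0.33 (SE). The largest cluster of the class was number 1, 1 and 17 in treated mice against 19, 9 and 3 in vehicle mice, so only treated 1 and treated 2 shared it, and its part in these values was not tested.

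**Figure D5:**
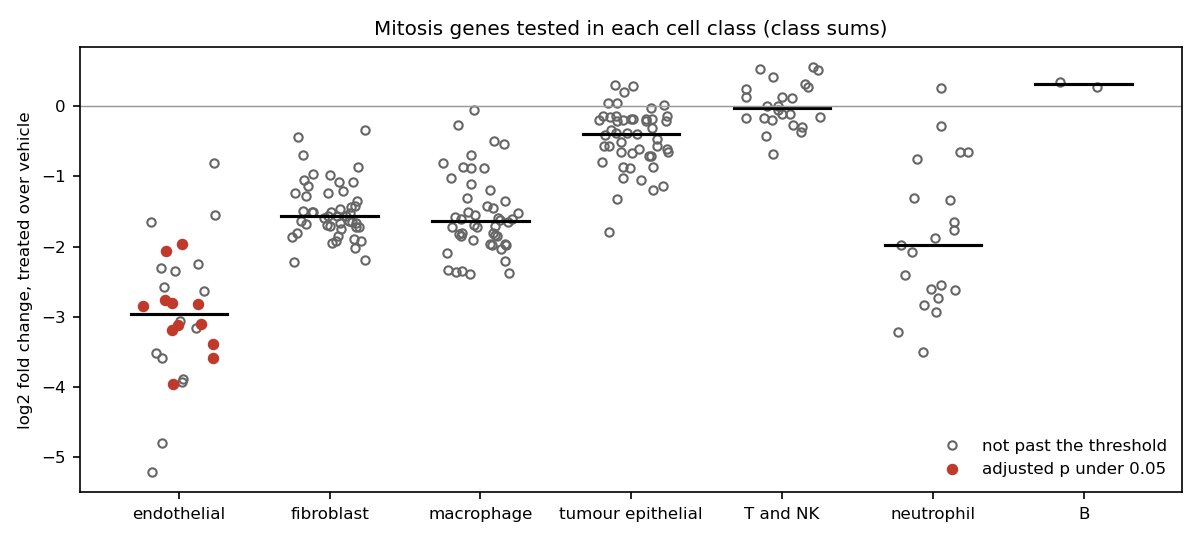
Log2 fold change, treated over vehicle, of each mitosis gene that passed the filter on low counts, by cell class, with filled red points for an adjusted p under 0.05 and a line at the median. All 12 filled points are in endothelial cells, and the medians are -2.95 over the 28 members tested in endothelial cells, -1.56 in fibroblasts, -1.64 in macrophages and -0.39 in tumour cells.

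The lymphocytes and neutrophils gave fewer members. In T and NK lymphocytes 24 members were tested and none passed (0% of 5089 genes did). None had an unadjusted p under 0.05 in edgeR, against 201 of those genes, and 12 members lay on either side of 0. Mki67 had 94.95, 79.5 and 136 CPM in treated mice against 29.4, 59.9 and 232 CPM in vehicle mice, and Top2a had 97.6, 70.4 and 177 CPM against 132, 91.7 and 221 CPM. Both overlapped, and vehicle 1 had only 41 of these cells. Of 6 members whose level per expressing cell could be tested none passed in limma, while 0.28% of genes fell and 0.168% rose. Unadjusted, 1 of the 6 had a p under 0.05 in limma, against 175 of 1786 genes. In B lymphocytes 2 members, Hmgb2 and Smc4, passed the filter and neither passed the threshold (0% of 1937 genes did). Neither was separate between groups, as 5.01% of genes were with treated lower and 4.34% with treated higher. In neutrophils 21 members were tested and none passed (0% of 7711 genes did). Of the 21, 4 had an unadjusted p under 0.05 in edgeR, against 412 of those genes. Neither of 2 members tested for their level per expressing neutrophil passed in limma, while 0.164% of genes rose. Top2a had 5.67, 2.19 and 45.1 CPM in treated neutrophils against 128, 14.7 and 16.9 CPM in vehicle neutrophils. Birc5 had 1.42, 0 and 20.2 CPM in treated neutrophils against 198, 11.0 and 8.63 CPM in vehicle neutrophils. Vehicle 1 was the highest of the 6 mice for both. DESeq2 called 0 members in T and NK lymphocytes, B lymphocytes and neutrophils. Without vehicle 1 the log2 differences of Cks2, Top2a, Mki67 and Hmgb2 in neutrophils turned positive, to 0.08, 0.39, 0.24 and 0.71.

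Whether endothelial cells responded more than another class was tested directly on the sums of both classes from the same 6 mice, with the mouse as a term. No member passed the threshold against tumour cells, macrophages or fibroblasts, with smallest adjusted p-values among the members of 0.457, 0.0610 and 0.107 in edgeR. Unadjusted, 39, 23 and 37 of 48 members had a p under 0.05 in edgeR. Of all genes, 1225 of 14601, 1527 of 12176 and 1137 of 12355 did. Against macrophages, 0.115% of genes passed in the direction of a larger fall in endothelial cells and 0.164% in the other, and against the other classes no gene passed. For Cks2, the endothelial log2 fold change minus that of tumour cells was -2.52 ± 0.56 (SE, adjusted p = 0.457 in edgeR), minus that of macrophages -1.78 ± 0.41 (adjusted p = 0.111) and minus that of fibroblasts -1.66 ± 0.29 (adjusted p = 0.109). The differences of Hmgb2 were -1.56 ± 0.78, -0.94 ± 0.41 and -1.15 ± 0.18 in the same order. A difference between the classes was therefore not shown at this threshold, although 12 members passed in endothelial cells and none in the others.

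Related genes outside the 48 were read beside them. Of 25 S-phase genes 24 were tested in endothelial cells, and 7 fell: Mcm5, Mcm6, Gins2, Mcm7, Dut, Tyms and Mcm3. Mcm5, a subunit of the replicative helicase, differed by -2.61 ± 0.34 on the log2 scale (SE, adjusted p = 0.0129 in edgeR), Mcm6, another subunit, -2.37 ± 0.37, Gins2, which binds that helicase, -2.04 ± 0.39, and Mcm7, a further subunit, -1.58 ± 0.23. Of 50 other mitosis genes 13 were tested there and none passed, with a median of -1.29. Unadjusted, 10 of the 13 had a p under 0.05 in edgeR, against 1928 of 10077 endothelial genes. Of 19 tested genes tied to leaving the cell cycle, E2f1, which promotes S-phase entry, fell (-2.49 ± 0.39, SE, adjusted p = 0.0159 in edgeR) and Klf9, a zinc-finger transcription factor, rose (1.14 ± 0.21, SE, adjusted p = 0.0268 in edgeR). In the other 6 classes none of these 3 lists had a gene past the threshold. The most abundant of the other mitosis genes were Ube2s, a ubiquitin-conjugating enzyme of the anaphase-promoting complex, and Tubb4b, a beta-tubulin. Their log2 differences were -0.98 and -1.07 in endothelial cells (adjusted p = 0.0644 and 0.0771 in edgeR), and in macrophages Ube2s stood at -0.60 and Tubb4b at -0.85 (adjusted p = 0.319 and 0.236 in edgeR).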

How the data were processed

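Gene counts per cell barcode (UMI counts) were deposited by the authors as 1 matrix per mouse; they were made with Cell Ranger 5.0.1 on build mm10, per the submitters' processing notes, with no gene annotation named there. Of 44819 barcodes, 39928 had at least 500 UMIs, 250 genes and at most 20% mitochondrial UMIs. The top Scrublet scores, at 0.8% per 1000 barcodes, were left out as doublets (2926), since Scrublet's own threshold called at most 1.19% of a library. The 37002 cells left were clustered without integration (scanpy 1.11.5, Leiden, 44 clusters) and sub-clusters were named from marker lists; 1681 cells (4.54%) stayed unnamed. No annotation by the authors was used, so the classes are rebuilt and may differ from the study's.

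Counts were summed per mouse and class and tested with edgeR 4.0.16 (TMM, filterByExpr, quasi-likelihood, two-sided). Shares of cells at 2000 UMIs were tested with edgeR with the number of cells as library size, and log2 UMIs per expressing cell with limma 3.58.1, each adjusted over all genes. With 3 mice against 3, an exact permutation test of a single value cannot go below p = 0.1. DESeq2 1.42.0 was an alternative. Scripts were tested on simulated data. Named genes were members past the threshold, up to 12 per class and direction, and Cdk1, Ccnb2, Cks2, Aurka, Plk1, Top2a, Mki67, Birc5, Hmgb2 and Cenpf in any class; of other lists, up to 4 past the threshold or the 2 most abundant. The members and lists were chosen with earlier results of these data known. Anln and Ncapd2 overlap a gene on the same strand, which could divide their reads. UMI intervals cover counting error only. One allele of the mouse model is not reported here.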

Additional observations from a re-analysis of the deposited data

How the results depend on the processing

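In endothelial sums 12 of 28 members tested fell, with 94 genes called in either direction. Leaving out 1 mouse gave 0 to 45 members of 28 or 48 tested, with 0 to 606 genes called. Summing treated 1 and treated 2 as 1 sample gave 0 of 48, with 0 genes called. Keeping doublets gave 19 of 38, with 68 genes, and dropping the filter on low counts 34 of 48, with 604 genes. For the endothelial share (2 of 5 members, 68 genes), leaving out 1 mouse gave 1 to 12, the 12 being of 14 tested with 157 genes. Thinning to 1000 UMIs gave 0 of 3, with 45 genes, and no filter 30 of 48, with 201 genes. For the endothelial level leaving out 1 mouse gave 0 to 1, the 1 being of 3 tested with 15 genes. In macrophage sums DESeq2 gave 34 of 48, with 323 genes, and no filter 13 of 48, with 69 genes. The macrophage share gave 0 to 3 without 1 mouse, the 3 being of 47 with 38 genes. Without a filter it gave 8 of 48, with 52 genes. The macrophage level gave 0 to 1 without 1 mouse, the 1 being of 22 with 10 genes. In fibroblast sums DESeq2 gave 1 of 48, with 302 genes. The fibroblast share gave 0 to 7 without 1 mouse, the 7 being of 35 with 64 genes. Without a filter it gave 19 of 48, with 349 genes. DESeq2 gave 1 of 48 in tumour cells, with 397 genes. The level in T and NK lymphocytes gave 0 to 1 without 1 mouse, the 1 being of 7 with 8 genes. The number of members tested changed between settings, so these counts are not on the same scale and describe only the members tested. The causes were not tested, except that an unfiltered test holds more genes and one without a mouse fewer samples.

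The replicate numbers do not pair mice, since deviations of same-numbered mice correlated between -0.13 and 0.29. With the replicate block the counts were 29 of 48 in endothelial sums, with 125 genes called in either direction. They were 0 of 14 in the endothelial share, with 1 gene, and 2 of 48 in macrophage sums, with 15 genes. Not thinned, the percent of carrying cells in treated minus vehicle mice was 5.85 in fibroblasts, 13.3 in macrophages, 12.4 in tumour cells and 23.6 in T and NK lymphocytes, against -9.34, -6.09, -7.01 and -15.1 at 2000 UMIs. The -15.1 leaves out vehicle 1, which had 7 T and NK lymphocytes of that depth, so thinning is not the only change there. The endothelial share of carrying cells was separate between groups by 1 cell of vehicle 1, and another random thinning, chosen after seeing the data, gave 0% there.

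Signs of log2 differences turned for Hmgb2 in B lymphocytes with clusters made without cell cycle genes (-1.15), for Cdk1 in T and NK lymphocytes with DESeq2 (-0.16), and with the replicate block for Cdk1 (-0.040) and Mki67 (0.062) in T and NK lymphocytes and Cenpf in tumour cells (0.0090). Leaving out 1 mouse gave, in T and NK lymphocytes, Cdk1 -0.43 to 0.47, Ccnb2 -0.42 to 0.94, Cenpf -0.026 to 1.10, Top2a -0.78 to 0.29, Mki67 -0.65 to 1.05 and Birc5 -0.95 to 0.72. It gave -0.57 to 0.049 for Mki67 in macrophages, where the positive value is without vehicle 2. In neutrophils it gave Cks2 -0.61 to 0.079, Top2a -4.22 to 0.39, Mki67 -1.19 to 0.24 and Hmgb2 -1.36 to 0.71, each positive only without vehicle 1, and in tumour cells Cks2 -0.37 to 0.12 and Cenpf -0.46 to 0.47. The share and level in T and NK lymphocytes without vehicle 2 or 3, and the macrophage level in cells with 5 or more members, could not be fitted.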
